A study of Danio rerio with 30 samples.

Results

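Zebrafish exposed to chlorpyrifos (CPF, an organophosphate insecticide) and copper (Cu) together, each at a level of 0.25, were compared with control fish that received neither. Of the 30 Affymetrix arrays in the study, 6 enter this comparison: 3 labelled CPF= 0.25 , Cu= 0.25 and 3 labelled CPF= 0 , Cu= 0. CPF 0.25 alone and Cu 0.25 alone, with 3 arrays each, serve as references for what the mixture adds to its single agents. All fish were adults of the AB strain, one year old. The treatment labels of the groups differed only in the 2 agents, but the groups were not spread alike over the title batches described below. The sources used here give neither the unit of the levels nor the length of exposure. The tissue is olfactory, but the labels differ on its extent: one field names the olfactory rosettes and another adds the olfactory bulbs and telencephalons. Transcripts of bulb and telencephalon neurons were plentiful on the arrays, with 19 to 20 of 21 such markers above 4 on the log2 scale on each control array. Nothing in the labels says whether the 3 arrays of a group came from separate tanks, and a p-value here reflects only how much these particular arrays vary.

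The olfactory rosette of a fish lies open to the water, and its sensory neurons carry odorant receptors, a G protein cascade and calcium-binding proteins on cilia and microvilli that waterborne metals reach directly. Copper is known to impair smell in fish, and a cell that takes up copper meets it with metal-binding proteins, chaperones and the proteasome. CPF acts through its oxon metabolite, which inhibits acetylcholinesterase, the enzyme that ends cholinergic signalling. The comparison asks which transcripts the mixture moved and whether the response looked like that to copper, to CPF, or to neither.

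Values are log2 expression levels as deposited, so a difference of 1 is a doubling. Each probe set was fitted with limma over all 30 arrays, and a call means a Benjamini-Hochberg adjusted p under 0.05 over 10531 probe sets. Every error is a standard error from that fit unless marked otherwise, and each group has n = 3. The titles carry a marker read here as a batch, with 12, 13 and 5 arrays in title batches 1, 2 and 3. Control and mixture have 1 array in each of them, replicate 1 in batch 3, replicate 2 in batch 1 and replicate 3 in batch 2. Cu 0.25 alone also has 1 in each. CPF 0.25 alone has none in batch 3: its replicates 1, 2 and 3 are in batches 2, 1 and 2. Array medians ran from 5.53 to 5.63 over the study. The mixture arrays resembled each other more closely than the control arrays did, with correlations of 0.9887 to 0.9911 against 0.9804 to 0.9852, and correlations between the 2 groups of 0.9715 to 0.9871. The median SD of a probe set was 0.132 in the mixture and 0.174 in the control.

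In the mixture a lysosomal protease gene and 2 proteasome genes rose, and genes for a G protein subunit and for 2 calcium-binding proteins fell. Cathepsin B (ctsba) rose 2.06-fold, while the hydrolase gene abhd2b fell 3.38-fold, calretinin (calb2a) 3.05-fold, a parvalbumin (pvalb5) 2.71-fold and the G protein subunit gng13b 2.03-fold. These belong to 19 called probe sets, 0.180% of those tested. Of these, 8 were higher (0.0760%) and 11 lower (0.104%). They name 15 genes, 7 higher and 8 lower, and leave 4 probe sets without a symbol in the annotation used here. All 19 had the same sign in each of the 3 title batches, and in all 19 the mixture and control arrays did not overlap. Both traits follow largely from choosing the probe sets by p on these same arrays, and are not separate evidence. The number of calls moved with single arrays: it was 6, 3 and 4 without mixture replicates 1, 2 and 3, and 6, 30 and 80 without control replicates 1, 2 and 3. Of the named genes only ctsba and actl6a were called in all 6 of these fits.

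A longer series of differences lay just outside the threshold. A further 30 probe sets shared the next adjusted p, 0.0528, among them sult2st1, sult2st2, s100z, lgmn, marco and slc39a3. In all, 1679 probe sets had p under 0.05 before adjustment in the limma fit, where 526.55 would fall there if p-values were uniform. With 1 array left out the 1679 became 930 without control replicate 1, 948 without mixture replicate 2 and up to 2120 without control replicate 3. The differences leaned upward: 55.5% of probe sets were higher in the mixture, with a median difference of 0.03. In single genes, each taken at its probe set of highest mean, 10.5% of 6448 were higher at unadjusted p under 0.05 and 4.85% were lower. All 3 mixture arrays lay above all 3 control arrays for 13.2% of genes and below them for 7.46%. These shares are the background for the list counts against control that follow. Counts against copper or CPF alone have their own shares, given with those comparisons.

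**Figure D1:**
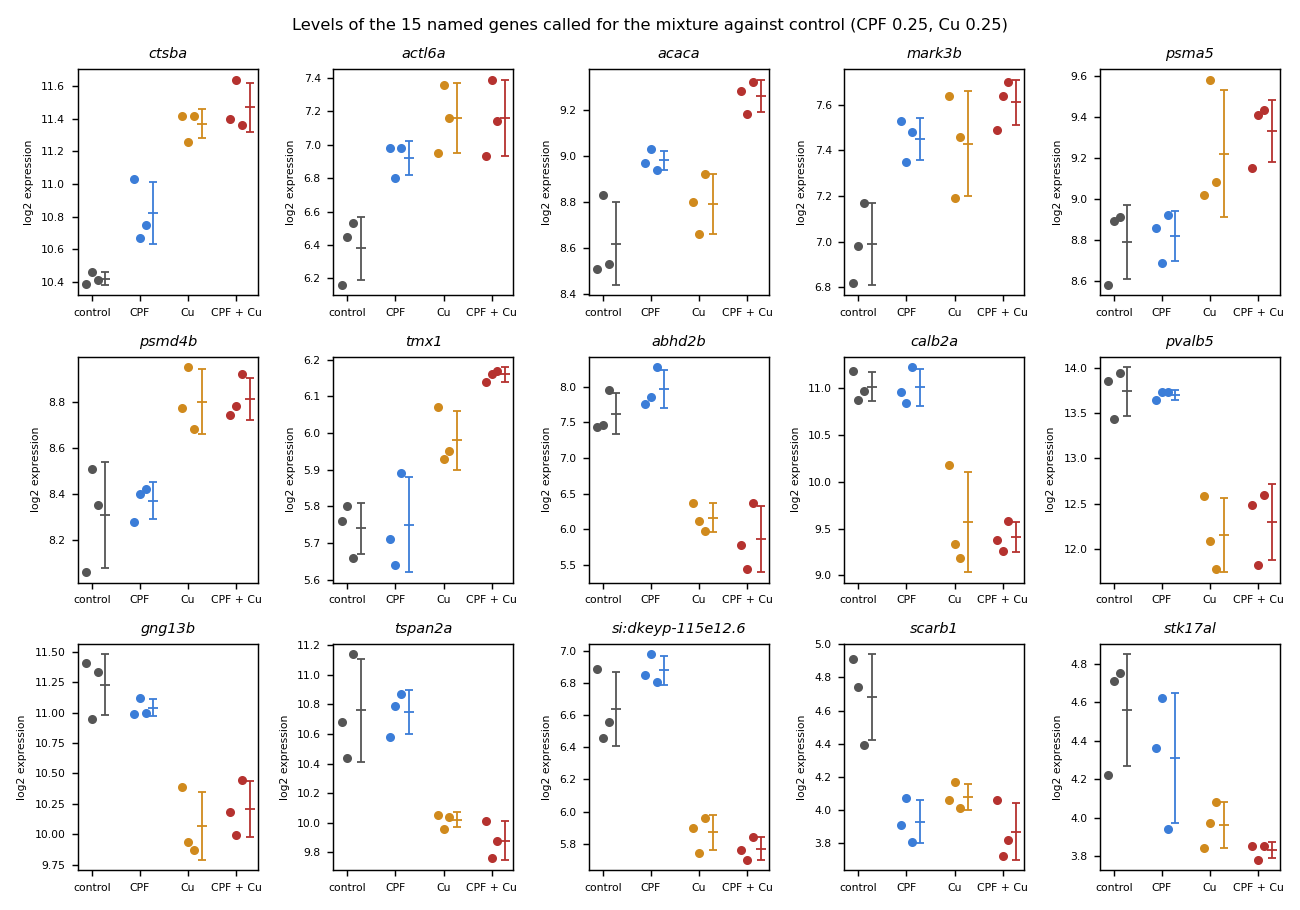
Log2 expression on each array (points) for the 15 named genes called in the mixture against control, in control, CPF 0.25, Cu 0.25 and the mixture, with mean and SD (bars, n = 3) to the right of each group; each panel has its own axis, which does not start at 0. Mixture and control do not overlap in any panel, and in ctsba, abhd2b, pvalb5, gng13b and tspan2a the Cu 0.25 arrays lie with the mixture. In calb2a Cu 0.25 replicate 1, at 10.18, lies between the mixture and control arrays, and the other Cu 0.25 arrays lie with the mixture.

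Among the genes of protein breakdown, ctsba, which encodes a lysosomal cysteine protease, read 10.39, 10.46 and 10.41 on the 3 control arrays and 11.40, 11.64 and 11.36 on the mixture arrays. The gap between the groups was several times the spread within either, with a difference of 1.05 ± 0.14 (limma, adjusted p = 0.00274). It was 1.18, 0.95 and 1.01 within title batches 1, 2 and 3. Some other lysosomal genes pointed the same way without passing: lgmn, which encodes the protease legumain, differed by 0.75 ± 0.17 (adjusted p = 0.0528), and ctsd, cathepsin D, by 0.42 ± 0.10 (adjusted p = 0.0803). Of 31 measured lysosomal proteases and hydrolases 21 had positive and 10 negative differences, beside 3870 positive of 6448 over all genes. In this list 1 was called, 7 had unadjusted p under 0.05 and were higher, none was lower at that level, and the median difference was 0.19 against 0.05 over all genes. All 15 measured subunits of the vacuolar proton pump, which acidifies the lysosome, had positive differences, with a median of 0.19. For 4 of them unadjusted p was under 0.05, none was called by limma, and in 1 the arrays did not overlap. Without control replicate 1 the pump median was 0.11, and without control replicate 3 it was 0.30. The 4 genes became 0 without control replicate 1 or 2, 2 and 1 without mixture replicates 2 and 3, and 7 without control replicate 3.

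Of the lists counted, that of the proteasome had the most genes higher at unadjusted p under 0.05. The 20S core subunit psma5 read 8.58, 8.89 and 8.91 in control and 9.15, 9.41 and 9.43 in the mixture, a rise of 0.54 ± 0.10 (limma, adjusted p = 0.0264). The ubiquitin receptor of the 19S cap, psmd4b, read 8.06, 8.51 and 8.35 in control and 8.74, 8.78 and 8.92 in the mixture, and rose by 0.51 ± 0.10 (adjusted p = 0.0264). Both gaps were modest beside those of the olfactory genes and, as for all 19 calls, kept their sign in each title batch. Of 51 measured proteasome genes 46 were higher in the mixture and 32 had all mixture arrays above all control arrays. Of the 51, 28 had unadjusted p under 0.05 and were higher and none was lower, 2 were called, and the median difference was 0.28. With 1 array left out the median was 0.23 to 0.30, and the 28 genes became 17 without mixture replicate 2 and 21 to 26 without any other.

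The parts of the particle did not all differ to the same degree. The median was 0.34 for 8 genes of the 20S alpha ring and 0.28 for 7 genes of the beta ring. For 7 ATPases of the 19S base it was 0.29, and for 16 other genes classed by name with the 19S cap it was 0.34. Those 16 include psmd5, psmd9 and psmd10, which encode assembly chaperones and not subunits of the mature particle. All 38 genes of these classes had positive differences. The median was 0.28 for 4 genes of the 11S activators and their inhibitor, and 0.16 for 4 assembly chaperones of other names. The 5 beta subunits of the immunoproteasome type, which replace the constitutive ones where interferon signalling is active, had a median of −0.22 and none at unadjusted p under 0.05.

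**Figure D2:**
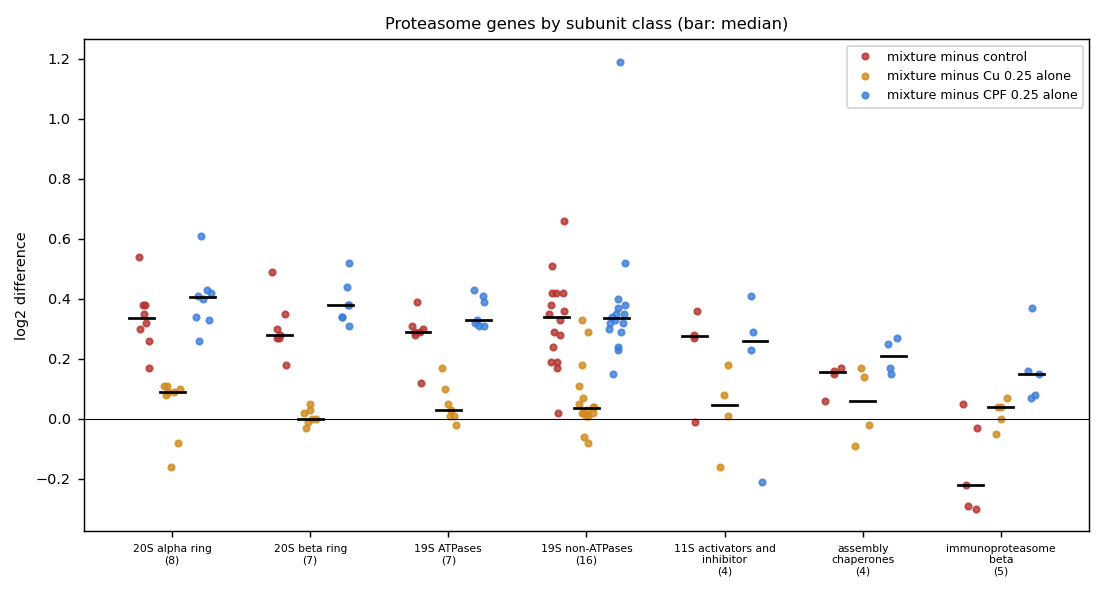
Log2 differences of 51 proteasome genes by subunit class, 1 point per gene, for the mixture minus control, minus Cu 0.25 alone and minus CPF 0.25 alone; bars mark medians and the number of genes stands under each class. The differences from control and from CPF lie mostly above 0. Those from Cu are smaller, with class medians of 0.00 to 0.09, and 38 are positive and 13 negative, beside 3334 positive of 6448 over all genes.

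Beyond breakdown, 4 genes of other roles rose. The chromatin remodelling subunit actl6a read 6.16, 6.45 and 6.53 in control and 6.93, 7.39 and 7.14 in the mixture, a rise of 0.78 ± 0.11 (limma, adjusted p = 0.00274). The gene acaca encodes acetyl-CoA carboxylase, which commits acetyl-CoA to fatty acid synthesis, and rose by 0.64 ± 0.11 (adjusted p = 0.0160), from 8.51, 8.83 and 8.53 to 9.28, 9.18 and 9.32. The microtubule-affinity kinase gene mark3b rose by 0.62 ± 0.12 (adjusted p = 0.0264) and tmx1, a thioredoxin-related membrane protein of the endoplasmic reticulum, by 0.42 ± 0.08 (adjusted p = 0.0393). Of the probe sets without a symbol, the 1 on the higher side rose by 0.77 ± 0.15 (adjusted p = 0.0335).

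Other genes of protein folding and membrane lipid supply were counted beside these. In the list of ubiquitin and unfolded protein response genes, 37 of 42 were higher, 16 had unadjusted p under 0.05 and were higher, 1 was lower at that level, none was called by limma, and the median was 0.23. With 1 array left out 6 to 11 were higher at that level, 6 of them without mixture replicate 2. Members included xbp1, a transcription factor of the unfolded protein response, at 0.51 (adjusted p = 0.0743), and pdia3, a disulfide isomerase, at 0.82 (adjusted p = 0.104). The kinase gene eif2ak3, whose product halts translation under endoplasmic reticulum stress, was at −0.48 (adjusted p = 0.0803). Of 10 cholesterol synthesis genes 9 were higher, with a median of 0.40, 4 at unadjusted p under 0.05 on the higher side (2 without mixture replicate 2) and 1 on the lower, and none was called. The largest difference there, 0.95 for hmgcs1, which makes HMG-CoA, had an adjusted p of 0.198. In 86 genes of oxidative phosphorylation the median was 0.14 and 72 were higher. At unadjusted p under 0.05, 16 were higher, 18.6% of the list against 10.5% of all genes, and 2 were lower. The 16 became 6 without mixture replicate 2 and 6 without control replicate 2.

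A single gene of olfactory transduction was called, on the lower side. Of 12 measured genes of olfactory transduction 7 had positive and 5 negative differences, with a median of 0.03. At unadjusted p under 0.05, 2 were higher and 2 lower, and gng13b was the 1 called. The gene gng13b encodes a G protein gamma subunit that in mammals couples odorant and taste receptors, and it read 11.41, 10.95 and 11.33 in control and 10.18, 9.99 and 10.45 in the mixture. It fell by 1.02 ± 0.16 on the log2 scale (limma, adjusted p = 0.00997), with every mixture array below every control array. The olfactory marker protein gene ompb, found in mature olfactory sensory neurons, read 6.28, 5.50 and 6.69 in control and 5.24, 4.59 and 5.15 in the mixture. Its difference of −1.16 ± 0.38 did not pass (adjusted p = 0.153), although the groups did not overlap. Of 23 odorant receptor genes on the array 6 passed the filter of 4 in at least 3 arrays. The genes or42c4, or42d1, or42e1 and or42c1 were above 4 on no mixture array and passed through other groups, so no count or median over the receptors is read. Their values sit near the bottom of the range: or42c4 read 3.06, 3.83 and 4.30 in control and 2.81, 2.14 and 2.88 in the mixture. The receptors above 4 on all 30 arrays were or70a2, at −0.79 (adjusted p = 0.255), and or30bw1, at −0.38 (adjusted p = 0.106).

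The calcium-binding proteins of the tissue split into a few genes far below control and many close to it. Calretinin, calb2a, which marks olfactory sensory neurons and some neurons of the bulb, read 11.19, 10.88 and 10.97 in control and 9.38, 9.26 and 9.58 in the mixture. It fell by 1.61 ± 0.29 (limma, adjusted p = 0.0241). The parvalbumin pvalb5 fell by 1.44 ± 0.27 (adjusted p = 0.0264), from 13.85, 13.43 and 13.94 to 12.48, 11.82 and 12.60. The S100 protein gene s100z had a larger difference with a larger error, −1.70 ± 0.39, and did not pass (adjusted p = 0.0528). Its mixture arrays, at 9.95, 9.38 and 10.36, lay below the controls at 11.74, 11.36 and 11.69. Of 23 measured EF-hand genes 2 were called, 4 were lower and 1 higher at unadjusted p under 0.05, and the median was 0.01 (−0.07 to 0.06 with 1 array left out). Neither call held without a mixture array or without control replicate 1. The one on the higher side was s100b, a glial calcium-binding protein in mammals, at 0.79 (adjusted p = 0.0528).

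The largest called drop was that of abhd2b, a gene for an alpha/beta hydrolase domain protein. It read 7.43, 7.46 and 7.95 in control and 5.78, 5.44 and 6.37 in the mixture, and fell by 1.76 ± 0.29 (limma, adjusted p = 0.0131). The tetraspanin gene tspan2a, which encodes a membrane organising protein, fell by 0.87 ± 0.17 (adjusted p = 0.0312), and the gene si:dkeyp-115e12.6 by 0.87 ± 0.16 (adjusted p = 0.0264). Of the probe sets without a symbol, the 3 on the lower side included one that fell by 1.39 ± 0.27 (adjusted p = 0.0264). The sulfotransferases sult2st1 and sult2st2, which attach sulfate to steroids and related small molecules, were at −1.69 ± 0.37 and −1.57 ± 0.34 (adjusted p = 0.0528 for both).

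The calls of scarb1, a lipoprotein receptor gene, and stk17al, a protein kinase gene, rest on dim probe sets. Both were above 4 on all 3 control arrays, scarb1 on 1 mixture array and stk17al on none, so the filter kept stk17al only through other groups. The probe set of scarb1 read 4.91, 4.74 and 4.39 in control and 4.06, 3.72 and 3.82 in the mixture, a fall of 0.81 ± 0.15 (limma, adjusted p = 0.0241), while its other probe set differed by −0.28 ± 0.15 (adjusted p = 0.374). That of stk17al fell by 0.73 ± 0.13 (adjusted p = 0.0241) to 3.85, 3.78 and 3.85, and the 3 other probe sets of stk17al, at −0.19, −0.36 and −0.91, did not pass.

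The summed level of the olfactory sensory neuron markers was lower in the mixture. It is not separate evidence for the fall of these neuronal genes. That list has 6 genes on the array, of which 5 were kept, and 2 of these, gng13b and calb2a, are themselves among the calls. Among the markers that were lower, gng13b, calb2a and s100z had by far the highest control means, so the lower sum largely restates their differences. The summed level was 13.09 to 13.35 in control, 12.19 to 12.44 in the mixture, 12.01 to 12.44 with Cu 0.25 alone and 13.03 to 13.40 with CPF 0.25 alone. Of the 5 kept, s100z, calb2a, ompb and gng13b had differences of −1.70 to −1.02, while gap43, a protein of growing axons, was at 0.02 (adjusted p = 0.965). In bulk tissue, fewer sensory neurons and less of each transcript per neuron cannot be told apart. The summed level of bulb and telencephalon markers was 14.83 to 15.02 in control and 14.89 to 15.02 in the mixture, and that of ciliated cell markers 13.87 to 13.89 and 13.84 to 13.90. Epithelial and skin markers ran from 15.38 to 15.82 in control and 15.21 to 15.40 in the mixture, and their median difference was −0.22 over 27 genes, or −0.11 and −0.06 without control replicates 1 and 2. Exocrine pancreas markers, which have no place in this tissue, were low in both groups, at 8.40 to 8.64 and 7.29 to 8.45. Erythrocyte markers were at 12.49 to 12.81 in control and 12.86 to 13.07 in the mixture. Of the 5 kept, 4 had positive and 1 a negative difference, none at unadjusted p under 0.05. Liver markers were at 12.07 to 12.45 in control and 12.34 to 12.49 in the mixture, and radial glia markers at 14.44 to 14.65 and 14.60 to 14.73. The part of these shifts in the gene differences was not tested.

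The genes of macrophages were also measured. The macrophage scavenger receptor gene marco read 6.56, 7.02 and 6.56 in control and 7.77, 8.74 and 7.75 in the mixture. The groups did not overlap, and the difference was 1.37 ± 0.31 (adjusted p = 0.0528). The complement gene c1qc, made by microglia and macrophages, was at 1.0 ± 0.25 (adjusted p = 0.0803), with controls at 6.28, 6.09 and 6.06 and mixture arrays at 6.69, 7.48 and 7.27. All 7 kept macrophage markers had positive differences, with a median of 0.20 and 2 at unadjusted p under 0.05, and none was called by limma. The median was 0.12 without mixture replicate 2, 0.30 without mixture replicate 3 and 0.31 without control replicate 2. Their summed level, 13.92 to 14.00 in control and 14.00 to 14.06 in the mixture, moved less than marco and c1qc did, and apoeb, an apolipoprotein gene of the list, was at 0.06. A longer list of 20 measured microglia and macrophage genes had 14 positive and 6 negative differences, with a median of 0.17. At unadjusted p under 0.05, 3 of them were higher and 1 lower, and none was called by limma. That median was 0.06 without mixture replicate 2 and 0.08 without control replicate 3.

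**Figure D3:**
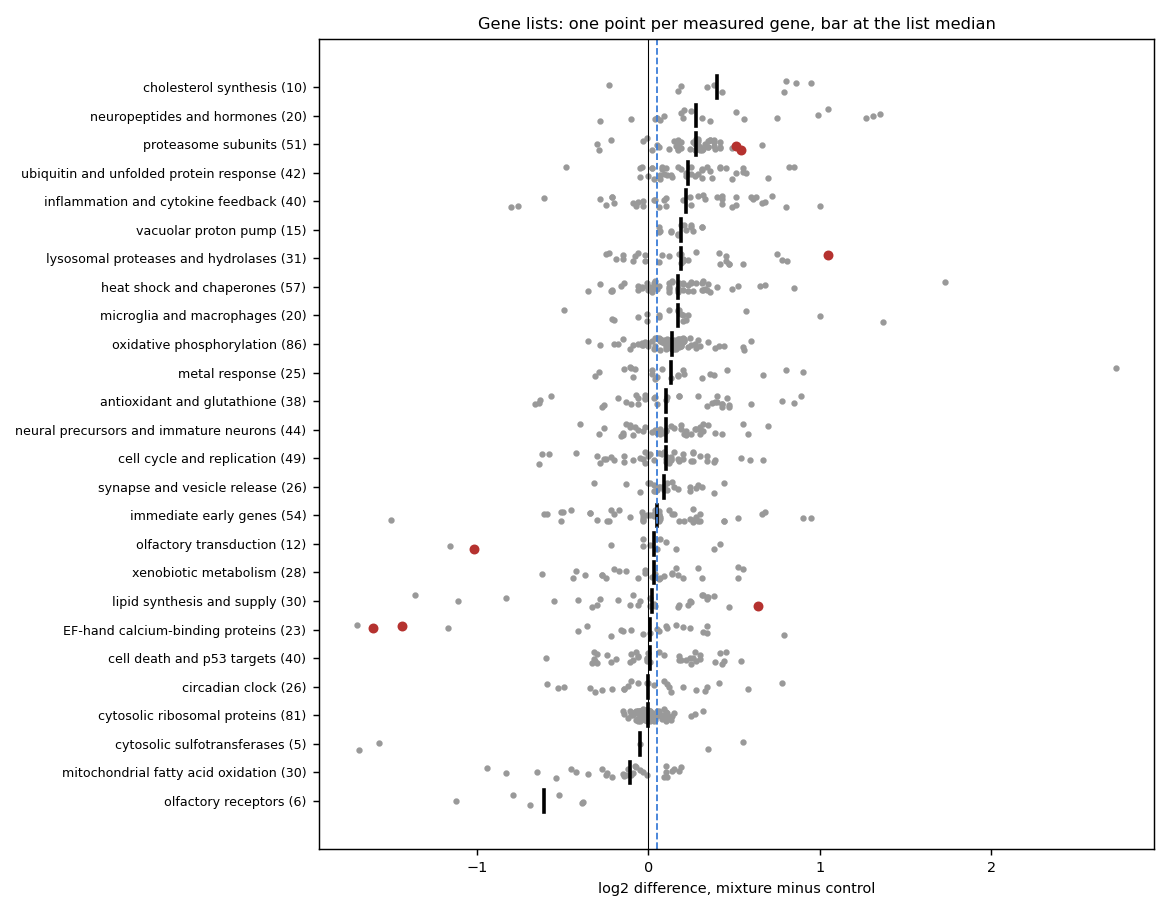
Log2 difference between the mixture and control for each measured gene (points) of 26 gene lists with at least 5 measured genes, ordered by the list median (black bars); the number measured stands in brackets, red points passed the threshold and the dashed line is the median of all genes, 0.05. Cholesterol synthesis, neuropeptides and the proteasome have the highest medians, 0.40, 0.28 and 0.28. The lowest bar, of the olfactory receptors, is not read, because most of those genes passed the filter only through groups other than the mixture.

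Among the metal and heat shock genes, a single control array stood apart for hsp70.3 and fthl28. The heat shock gene hsp70.3, which encodes an inducible chaperone, read 5.06, 7.62 and 4.63 in control and 7.81, 7.10 and 7.57 in the mixture. Control replicate 2 stood at the level of the mixture, while the other controls lay more than 2 below it on the log2 scale. The difference was 1.73 ± 0.85 (adjusted p = 0.322), and within title batches 1, 2 and 3 it was −0.52, 2.95 and 2.75. Without control replicate 2 it was 2.65 ± 0.89, with an adjusted p of 0.234, the lowest of a range of 0.234 to 0.786 over the main and alternative fits. The ferritin heavy chain-like gene fthl28, an iron storage protein, had the same outlying control: 7.61, 11.16 and 6.98 in control and 11.42, 10.78 and 11.75 in the mixture, a difference of 2.73 ± 1.23 (adjusted p = 0.285), or 4.07 ± 1.29 without that control (adjusted p = 0.197, range 0.197 to 0.727). The cochaperone dnajb1b differed by −0.04, 0.97 and 1.62 within batches 1, 2 and 3 (0.85 ± 0.29, adjusted p = 0.166). Of 57 chaperone genes 10 were higher and 1 lower at unadjusted p under 0.05, with a median of 0.17, and of 25 metal response genes 4 were higher and none lower, with a median of 0.13. Without control replicate 2 the chaperone median was 0.16 and the metal median 0.09. The 10 higher chaperone genes became 4 without control replicate 1. The metal median was 0.06 without control replicate 1 and 0.08 without mixture replicate 2, and its 4 genes became 2 without mixture replicate 3 and 6 without control replicate 2. Neither list had a call. The zinc transporter gene slc39a3 of the metal list read 5.50, 5.12 and 5.07 in control and 5.98, 5.80 and 5.93 in the mixture (0.67 ± 0.15, adjusted p = 0.0528). The metallothionein gene mt2 and the haem oxygenase gene hmox1a were not among the genes kept.

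**Figure D4:**
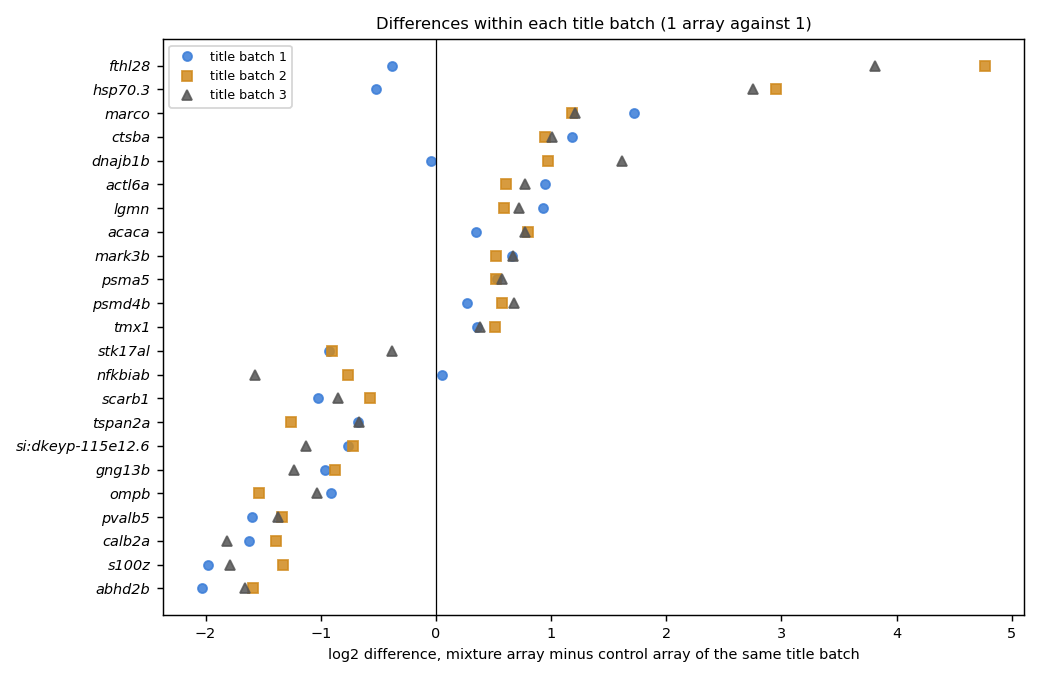
Log2 difference between the mixture array and the control array of the same title batch (1 array against 1, with no test) for the 15 called genes and 8 further genes. The called genes, chosen on these same arrays, keep their sign in all 3 batches, while hsp70.3, fthl28 and dnajb1b lie at −0.52, −0.38 and −0.04 in title batch 1 and well above 0 in batches 2 and 3.

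For a pair of cytokine feedback genes, chosen after their values were seen, it was a mixture array that stood with the controls. Their list of 40 measured genes had a median of 0.22, with 27 positive and 13 negative differences, 2 higher and 1 lower at unadjusted p under 0.05, and none called by limma. Its median was 0.02 without mixture replicate 2, 0.34 without mixture replicate 3 and 0.09 without control replicate 3. Against copper alone 8 were higher at that level, 20% of the list against 2.87% of all genes, and none was lower. The 8 became 1 without mixture replicate 2, 5 without mixture replicate 1, and 3 and 4 without Cu 0.25 replicates 2 and 3. For nfkbiab, an inhibitor of NF-kappa-B, the controls were at 11.31, 10.83 and 10.87 and the mixture arrays at 9.74, 10.88 and 10.11 (−0.76 ± 0.25, adjusted p = 0.160), and without mixture replicate 2 the difference was −1.14 ± 0.23 (adjusted p = 0.15, range 0.0695 to 0.752). For socs3a, which dampens cytokine receptors, mixture replicate 2 at 11.95 lay among the controls at 12.16, 11.74 and 11.91, and the other mixture arrays were at 10.94 and 11.10 (−0.61 ± 0.34, adjusted p = 0.376). Without replicate 2 it was −0.94 ± 0.36 (adjusted p = 0.444, range 0.324 to 0.865). The acetylcholinesterase gene ache, whose protein is the target of CPF, read 7.22, 6.50 and 7.35 in control and 7.39, 6.89 and 7.55 in the mixture. The groups overlapped, and the difference of 0.25 ± 0.29 had a 95% interval of −0.34 to 0.85 (adjusted p = 0.705).

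The comparison with Cu 0.25 alone asks what CPF 0.25 added to the same copper. No probe set passed (0.00% called by limma), 596 had unadjusted p under 0.05, and the smallest adjusted p was 0.182, for the histone demethylase gene kdm5c. Of the 19 probe sets called against control, 18 had a 95% interval for the difference from copper that included 0. The exception was acaca, higher than with copper alone by 0.47, with an interval of 0.24 to 0.69, but its adjusted p was 0.485. Its Cu 0.25 arrays read 8.80, 8.66 and 8.92 and lay below the mixture. The interval of tmx1 only just included 0, at −0.00 to 0.35 around a difference of 0.17 (limma, adjusted p = 0.883). The Cu 0.25 arrays of tmx1, at 6.07, 5.93 and 5.95, also lay below its mixture arrays, at 6.14, 6.16 and 6.17. For ctsba the difference from copper was 0.10, with an interval of −0.20 to 0.40. For calb2a it was −0.16, with an interval of −0.77 to 0.44, so a further difference within those bounds is not excluded by these arrays. The distance from the estimate to either bound had a median of 0.33 over all probe sets. These intervals are not adjusted for the number of probe sets, and a call needs a larger difference, as acaca at 0.47 shows. The absence of calls therefore sets no bound at 0.33. In genes, 2.87% were higher and 2.53% lower than with copper alone at unadjusted p under 0.05.

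Genes with the smallest p against copper alone gave values without a call. The gene kdm5c read 7.30, 7.23 and 7.07 with copper alone, 7.76, 7.86 and 7.81 in the mixture and 7.58, 7.57 and 7.53 in control. The mixture was thus above both, by 0.61 against copper and 0.25 against control. The angiogenic factor gene vegfaa differed from copper by 0.88 (adjusted p = 0.485), and eci1, an isomerase of fatty acid oxidation, by −0.72 (adjusted p = 0.485). In the list of 30 genes of mitochondrial fatty acid oxidation the median against copper alone was −0.17, beside 0.01 over all genes. At unadjusted p under 0.05, 10 were lower, 33.3% of the list against 2.53% of all genes, and none was higher or called. The 10 became 6 without Cu 0.25 replicate 2, and the median was −0.12 to −0.32 with 1 array left out, −0.32 without Cu 0.25 replicate 3 and −0.26 without mixture replicate 2. Against control the median was −0.11 (−0.07 without control replicate 2), with 6 lower at that level, and 3 without mixture replicate 1 or control replicate 3. The carnitine transferase gene cpt1ab was at −0.84 against copper (adjusted p = 0.564) and −0.83 against control (adjusted p = 0.110). Both comparisons share the mixture arrays. Immediate early genes, which neurons switch on within minutes of activity, had a median of 0.25 against copper alone, with 12 of 54 higher and none lower at unadjusted p under 0.05. Without Cu 0.25 replicate 2 the median was 0.11 with 1 higher, and without mixture replicate 2 it was 0.17 with 4 higher. Their median against control was 0.05 (−0.03 to 0.09 with 1 array left out), with 3 higher and 6 lower.

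**Figure D5:**
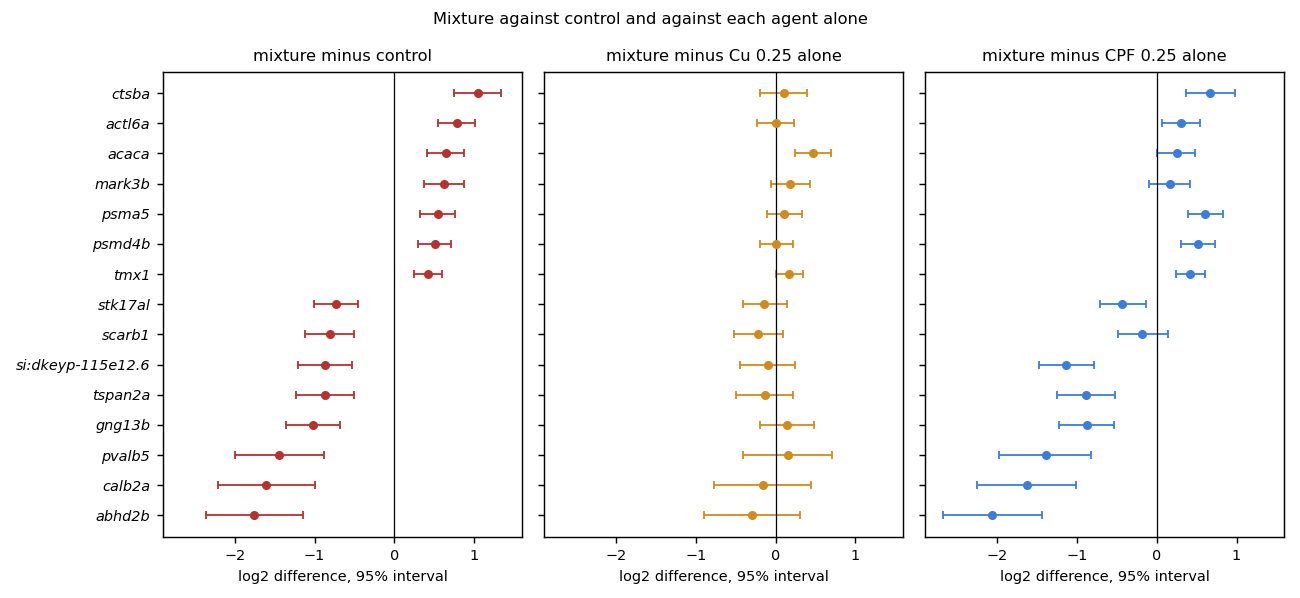
Log2 difference with its 95% interval for the 15 called genes, for the mixture minus control, minus Cu 0.25 alone and minus CPF 0.25 alone, from the fit over 30 arrays; all 3 panels share the mixture arrays. Against copper the intervals include 0 except for acaca, and against CPF they exclude 0 except for mark3b and scarb1.

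The comparison with CPF 0.25 alone asks what copper added to the same CPF, and it gave 42 calls (0.399%), 17 higher and 25 lower, in 35 named genes. Of the 19 probe sets called against control 11 passed here too, and for 16 the 95% interval excluded 0. These comparisons share the mixture arrays. For abhd2b the CPF arrays, at 7.76, 7.86 and 8.28, lay with the controls, and the mixture was lower by 2.06 (95% interval 1.44 to 2.68 below, limma adjusted p = 0.00506). The odorant receptor gene or42c4 is among the calls but is given as values only, since it passed the filter through groups without copper: 4.57, 4.14 and 4.69 with CPF alone against 2.81, 2.14 and 2.88 in the mixture. The sulfotransferase sult2st1 fell by 1.71 (adjusted p = 0.0451). The proteasome assembly chaperone gene psmd10 rose by 1.19 (adjusted p = 0.0180), from 5.66, 5.53 and 5.94 to 6.60, 6.82 and 7.17. The cochaperone dnajb1b rose by 1.44 (adjusted p = 0.0311), and its CPF arrays, at 4.95, 5.08 and 5.01, lay close together. The sulfide-oxidising enzyme gene sqor rose by 1.37 (adjusted p = 0.0355), the complement gene c1qc by 1.27 (adjusted p = 0.0311), the thioredoxin-like gene txnl1 by 0.83 (adjusted p = 0.0153) and slc39a3 by 0.69 (adjusted p = 0.0475). The genes nfil3-6 and nr1d2a, of families that repress transcription in the circadian clock, fell by 1.18 and 0.95 (adjusted p = 0.0180 and 0.0399).

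Over the proteasome list, 50 of 51 genes were higher in the mixture than with CPF alone. At unadjusted p under 0.05, 35 of 51 were higher, against 7.91% of all genes, and none was lower, against 3.37% of all genes. The median was 0.33 against CPF and 0.03 against copper. Immediate early genes had a median of −0.26 against CPF, with 12 of 54 lower and 1 higher. The 12 became 7 without mixture replicate 1 or CPF replicate 3. CPF 0.25 replicates 1 and 3 carried the most liver and pancreas transcripts of the arrays compared here, with summed pancreas markers of 7.62 to 10.39 over the CPF arrays. Without them and 2 other such arrays the count was 5 in place of 42, with 1 CPF array left. It was 16, 0 and 3 without mixture replicates 1, 2 and 3, and 3, 11 and 4 without CPF replicates 1, 2 and 3. No CPF 0.25 array is in title batch 3, so batch terms do not cancel in this comparison. Without the arrays of that batch the count was 8.

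Cu 0.25 alone against CPF 0.25 alone was also read for the same 19 probe sets, and this comparison had 51 calls (0.484%). Its groups share no array with the mixture and control, but the error of each probe set came from the same fit. Choosing the 19 by p in that fit favours a small error, so the number passing here is not separate evidence. No share over all probe sets is given beside the count of equal signs. Of the 19, 16 had the same sign as in the mixture against control and 8 passed, among them abhd2b at −1.77 (limma, adjusted p = 0.0101), gng13b at −1.01 (adjusted p = 0.00969), pvalb5 at −1.54 (adjusted p = 0.0144), calb2a at −1.47 (adjusted p = 0.0269), psma5 at 0.50 (adjusted p = 0.0399) and psmd4b at 0.51 (adjusted p = 0.0247). The gene acaca was at −0.22 (adjusted p = 0.562), and its copper and CPF means, 8.79 ± 0.13 and 8.98 ± 0.04 (SD, n = 3), lay between those of control and mixture, 8.62 ± 0.18 and 9.26 ± 0.07.

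Whether the mixture departed from the sum of its agents was tested as the mixture minus both single agents plus control. No probe set passed (0.00% by limma), 422 had unadjusted p under 0.05, and the smallest adjusted p was 0.972. The intervals are wide, since 4 group means enter: for ctsba the departure was −0.27, with a 95% interval of −0.70 to 0.16, for acaca 0.08, with −0.25 to 0.40, and for calb2a −0.18, with −1.05 to 0.68. The gene actl6a was at −0.48, with an interval of −0.81 to −0.15 and an adjusted p of 1.0. Its copper arrays, CPF arrays and mixture arrays had means of 7.16, 6.92 and 7.16, each above the control mean of 6.38.

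The level of CPF within the mixture was compared over the 3 mixtures with Cu 0.25. An F-test of CPF 0.25 + Cu 0.25 against the mixtures with CPF 0.1 and CPF 0.6 gave no call (0.00% by limma), 296 probe sets at unadjusted p under 0.05 and a smallest adjusted p of 0.579. For ctsba the means with CPF 0.1, 0.25 and 0.6 were 11.27, 11.47 and 11.20, for calb2a 9.86, 9.41 and 9.28, for gng13b 10.19, 10.21 and 10.15, and for acaca 9.05, 9.26 and 9.04. The means of calb2a followed the CPF level in descending order and those of the others did not, and none of these genes passed the F-test.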

How the data were processed

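The deposited table of the whole series held log2 expression values from the authors' GCRMA step, as the submitters' processing notes record it without a version. Values ran from 1.02 to 15.73. Of 15617 probe sets 115 control probe sets were left out, and 10795 of the other 15502 had 1 gene symbol. Probe sets above 4 in at least 3 arrays were kept (10531, of which 7619 had 1 symbol, for 6448 genes). They were fitted with limma 3.58.1 in R 4.3.3, with group means and title batch as fixed terms (18 residual degrees of freedom, lmFit and eBayes). Batch terms cancel in the mixture minus control, so they act on its spread only. They do not cancel where CPF 0.25 alone or the CPF 0.1 mixture enters, since neither group has an array in title batch 3. Those comparisons depend on the estimated batch terms. The number of arrays limits the precision.

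Gene lists, markers, named genes (up to 12 highest and 12 lowest calls with one sign in all batches, list members past the threshold, the next 10 p-values, a fixed set, and the 5 smallest p-values of other tests) and tests were chosen with earlier results of these data known. Further calls against CPF alone were chosen after seeing their values. The genes psmc3ip, psme3ip1, hspg2 and fmod were removed from lists matched by name after seeing the data, and the comparison of copper with CPF was added then. List members named in the text were picked after seeing their values. On simulated data with this design and 10531 probe sets, 40.3% of added differences of 0.5, 91.0% of 1 and 100.0% of 2 were recovered for the mixture against control, with 4 false calls. The simulated noise was independent between probe sets and held no effects shared across an array. These rates therefore check the fit and do not give the detection rate on the real arrays, where single arrays moved the count. Alternatives were other batch terms, filters, normalizations, priors and weights, fits of fewer arrays, and leaving out each array.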

Additional observations from a re-analysis of the deposited data

How the results depend on the processing

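The direction of the 15 called genes held under every alternative that gave them a value (13 of the 15 with a filter at 6), but the number of probe sets called did not. That direction was largely fixed in advance and is not separate evidence. Other batch terms, filters and priors, and fits of the 6 arrays alone, leave the mixture minus control difference of a gene as it is. The genes were also chosen on these same arrays, where the groups did not overlap. For the mixture against control the number of calls was 19, and 15 with title batch as a random block. It was 20 with no filter, 17 with a trended and robust prior and 16 when 4 arrays with many liver or pancreas transcripts were left out. It was 31 with no batch term, 41 with a filter at 6, 45 with quantile normalization (11 higher, 34 lower, against 8 and 11), 60 with median centring (30 higher, 30 lower) and 729 with array weights. Leaving out title batch 3 gave 0 (962 at unadjusted p under 0.05 by limma), and with the 6 arrays fitted alone 0 when paired by title batch (1545) and 1, calb2a, without it. Leaving out 1 array gave 3 to 80: 6, 3 and 4 without mixture replicates 1, 2 and 3, and 6, 30 and 80 without control replicates 1, 2 and 3. Only ctsba and actl6a kept their calls in all 6 of these. psma5 and psmd4b lost theirs with no batch term, the random block and quantile normalization. Without control replicate 1 neither was called, and the proteasome median was 0.30. For the mixture against CPF alone 42 became 26 with the random block, 8 without title batch 3, 73 with array weights, 5 without those 4 arrays, 0 (965 at unadjusted p under 0.05) and 19 with the groups fitted alone with and without batch, and 0 to 16 with 1 array left out. Each single array of that comparison moved it, to 16, 0 and 3 without mixture replicates 1, 2 and 3 and to 3, 11 and 4 without CPF replicates 1, 2 and 3. Against copper alone the count of 0 became 4 without those 4 arrays, and 0 to 1 with 1 array left out. It was 0 to 1 for the departure from additivity, and 3 with no filter for the other mixtures. Causes were not tested.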

Other observations

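Neuropeptide genes, which few text values above describe, were mostly higher in the mixture than in control: 18 of 20 measured, with a median of 0.28, 6 at unadjusted p under 0.05 and none called by limma. The median was 0.18 without control replicate 1 and 0.42 without control replicate 3. The gonadotropin-releasing hormone gene gnrh3, made by the terminal nerve beside the olfactory bulb, was at 1.27 (adjusted p = 0.148), the RFamide gene npffl at 1.35 (adjusted p = 0.149) and the tachykinin gene tac3b at 1.31 (adjusted p = 0.102). Their differences from copper alone were −0.07, −0.13 and 0.35. The hypothalamic hormone genes avp and oxt, at 0.99 and 1.05, had adjusted p of 0.582 and 0.666.

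Among antioxidant genes, 10 of 38 were higher and 3 lower at unadjusted p under 0.05, with none called. The 10 became 6 without control replicate 1 and 4 without control replicate 3. The glutathione reductase gene gsr was at 0.78 (adjusted p = 0.179) and the peroxiredoxin gene prdx1 at 0.89 (adjusted p = 0.255), while nqo1, a quinone reductase, was at −0.57 (adjusted p = 0.308). Cytosolic ribosomal protein genes stayed close to control, with a median of 0.00 over 81 genes, 40 higher and 41 lower, and none at unadjusted p under 0.05. Against copper alone 5 had positive and 76 negative differences, with a median of −0.11 beside 0.01 over all genes. At unadjusted p under 0.05 by limma, 3 were lower (3.7% against 2.53% of all genes), and none was higher or called.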
